A study of Mus musculus with 12 samples.

Results

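The CXC chemokine ligands described here were 8 genes taken by symbol from a table of 55401 mouse genes. They were the neutrophil-attracting ligands Cxcl1, Cxcl2, Cxcl3 and Cxcl5, the interferon-induced ligands Cxcl9, Cxcl10 and Cxcl11, and the transmembrane ligand Cxcl16. The measurements were RNA-seq counts from 12 libraries of Sp37A3, an immature dendritic cell (DC) line derived from the spleen of C57BL/6 mice and kept in medium with GM-CSF and M-CSF. CtrV cells had received an empty vector and carry the label SiglecE-expressing, whereas EKO cells were a pool of clones edited with CRISPR-Cas9 at the Siglece gene and carry the label SiglecE-knockout. Cells of each line were either unpulsed or pulsed with ovalbumin (OVA), a protein antigen, which gave 4 groups of 3 replicates. Libraries of all 4 groups came from cells stimulated with LPS, a bacterial lipid that activates the receptor TLR4, with 24 h of processing time, so no group shows the lines without LPS.

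Chemokines are small secreted proteins that direct the movement of leukocytes by binding G protein-coupled receptors. The neutrophil-attracting CXC ligands carry a Glu-Leu-Arg motif before the paired cysteines and bind CXCR2, and their genes are known targets of NF-kB in cells that sense microbial products. CXCL9, CXCL10 and CXCL11 lack that motif, bind CXCR3 on activated T cells and NK cells, and are induced by interferons. CXCL16 is made as a membrane protein that binds CXCR6, and a metalloprotease can release its extracellular part.

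Library totals lay between 27116201 and 39698572 counts, and 14079 genes passed a filter of log2 CPM (a gene's count relative to the TMM-scaled library total, with a prior count of 2) above 0 in at least 2 libraries. Siglece, the edited gene, was listed at 166 to 235 CPM in EKO-labelled libraries and at 150.2 to 163 CPM in CtrV. edgeR's quasi-likelihood test called it higher in EKO-labelled cells, by 0.31 on the log2 scale with OVA (adjusted p = 0.0106) and 0.41 without (adjusted p = 0.00261). Its transcript, which a small edit need not remove, was thus not lower there and does not check the line labels. The paper reports little or no Siglec-E expression for the pooled clones. Expression in bulk RNA cannot tell a change in the share of cells that make a ligand from a change in RNA per cell. Dendritic cell markers were present, with Cd74, H2-Ab1 and Itgax high and Flt3 low at group means of 1.36 to 4.67 CPM. The neutrophil markers Ly6g, Elane, S100a8 and S100a9 had 0 counts in every library, and Mpo had at most 3. B cell markers summed to 0.0358 to 0.212 CPM in CtrV and to 0.450 to 1.07 CPM in EKO-labelled libraries, and the 4 macrophage markers to 1256 to 1431 CPM and 1599 to 1717 CPM. Within that list Csf1r and Fcgr1 had higher means in EKO-labelled groups, Adgre1 was level at 634 to 647 CPM, and Mertk had lower means. The endothelial markers Pecam1 and Cdh5 summed to 167 to 203 CPM in CtrV and to 285 to 348 CPM in EKO-labelled libraries. The part of these markers in the results below was not tested. EKO-labelled replicate 1 stood apart from replicates 2 and 3 of its groups, since the chi-square over genes, divided by its degrees of freedom, was 26.2 to 45.3 for pairs with replicate 1 and 7.50 and 11.8 for replicates 2 and 3. In CtrV, unpulsed replicate 3 (25.4 and 23.4 against 4.85 for the other pair) and OVA-pulsed replicate 1 (14.5 and 21.3 against 7.97) also stood apart.

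The members lie in 2 clusters on chromosome 5 and at 1 site on chromosome 11 of GRCm38. Cxcl5 (chr5:90759360-90761624), Cxcl3 (chr5:90786103-90789600), Cxcl1 (chr5:90891241-90893115) and Cxcl2 (chr5:90903871-90905938) follow each other on the plus strand. After a gap of 1415408 bases come Cxcl9 (chr5:92321347-92328079), Cxcl10 (chr5:92346638-92348889) and Cxcl11 (chr5:92359544-92365485) on the minus strand. Cxcl16 is on the minus strand at chr11:70453983-70459984. The annotations class 7 members as protein-coding and Cxcl11 as a pseudogene, polymorphic in GENCODE and transcribed in RefSeq.

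Promoter sequences from RefSeq (GRCm38.p6) were matched for 5 members, Cxcl1, Cxcl2, Cxcl3, Cxcl9 and Cxcl10, each with 250 bases before and 50 after the start. An NF-kB-like motif (GGGNNNTTCC, either strand) was found in 4 of these 5 promoters, and in 5.56% of the 32851 promoters in the table. An interferon-stimulated response element (ISRE, GAAANNGAAA) was found in 1 of the 5, that of Cxcl10, and in 3.44% of all promoters. A gamma-activated site (GAS, TTCNNNGAA) was found in 0 of the 5 and in 8.30% of all promoters. The stretches that hold the matches are shown 5′ to 3′ on the coding strand because they show which of these letters the neutrophil-attracting genes and Cxcl10 have in common. Capitals mark NF-kB-like matches and, in Cxcl10, also the ISRE match nearest to the 5′ end. Where matches on the coding and the opposite strand overlap by all but 1 base, they are written as a single run.
Cxcl1, plus strand, chr5:90891135-90891214: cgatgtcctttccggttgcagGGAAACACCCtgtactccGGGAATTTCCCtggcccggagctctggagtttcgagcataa
Cxcl2, plus strand, chr5:90903789-90903868: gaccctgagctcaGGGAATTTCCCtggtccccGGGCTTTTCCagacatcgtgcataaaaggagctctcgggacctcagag
Cxcl3, plus strand, chr5:90785991-90786070: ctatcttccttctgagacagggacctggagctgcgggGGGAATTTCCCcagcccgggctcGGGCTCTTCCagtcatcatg
Cxcl10, minus strand, chr5:92348920-92349109: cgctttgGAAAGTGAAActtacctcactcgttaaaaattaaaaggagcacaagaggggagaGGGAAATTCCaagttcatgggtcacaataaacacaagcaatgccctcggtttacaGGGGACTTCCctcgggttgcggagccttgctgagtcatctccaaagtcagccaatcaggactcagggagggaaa

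The stretches of Cxcl1, Cxcl2 and Cxcl3 have in common the run GGGAATTTCCC, the longest they share, which 14 of the 32851 promoters hold. That run was singled out after the promoters had been seen. Counted from the RefSeq start, its first match lies at -71 to -62 in Cxcl1, at -97 to -88 in Cxcl2 and at -73 to -64 in Cxcl3. In Cxcl10 the ISRE match is at -213 to -204, and the NF-kB-like matches are at -159 to -150 and at -104 to -95. These are matches of letters in a window, and no binding was measured.

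**Figure D1:**
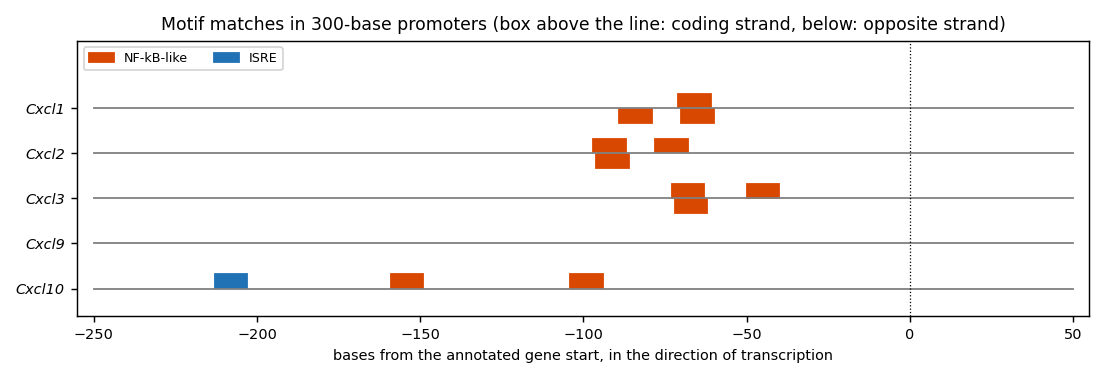
Positions of motif matches in the promoters of 5 members, with bases from the gene start on the horizontal axis and each box spanning 1 match (above the line on the coding strand, below it on the opposite strand). NF-kB-like matches sit between -97 and -41 in Cxcl1, Cxcl2 and Cxcl3 and between -159 and -95 in Cxcl10, which alone of the 5 has an ISRE match.

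The members differed widely in level. Per kilobase of exon, Cxcl16 was the most abundant, at 70.5 to 94.9 CPM per kb over the 6 CtrV libraries and 149 to 178 CPM per kb over the 6 EKO-labelled libraries. Cxcl2 and Cxcl10 followed, and as neighbours in that order they could not be told apart, with 3.34 to 5.65 and 3.18 to 4.18 CPM per kb in CtrV and 19.8 to 42.1 and 12.0 to 36.8 CPM per kb in EKO-labelled libraries. Cxcl9 (0.262 to 0.663 CPM per kb) lay above Cxcl1 (0.0483 to 0.187 CPM per kb) in CtrV without overlap. In EKO-labelled libraries their ranges overlapped, with 0.725 to 1.05 CPM per kb for Cxcl9 and 0.261 to 1.39 CPM per kb for Cxcl1. Cxcl3, Cxcl11 and Cxcl5 had at most 39, 12 and 1 counts in any library.

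The first comparison asked whether the EKO-labelled and CtrV lines differed in these mRNAs after LPS. All 5 members that passed the filter (Cxcl1, Cxcl2, Cxcl9, Cxcl10 and Cxcl16) were higher in EKO-labelled cells, with and without OVA, and their groups did not overlap in either comparison. In OVA-pulsed cells, edgeR's quasi-likelihood test called 25.1% of all tested genes higher, and 27.0% had every EKO-labelled library above every CtrV library. In unpulsed cells, 24.5% were called higher and 24.1% had groups that did not overlap. Cxcl1 passed the filter through 3 EKO-labelled libraries and 0 CtrV libraries, so a difference was part of how it came to be tested, and the count of 5 carries no weight for the 8 members. The other 4 tested members had a median log2 fold change of 1.86 with OVA and 1.97 without. All tested genes had one of 0.00 in both, which is where TMM scaling tends to put it. The other 3 members, Cxcl3, Cxcl5 and Cxcl11, did not pass.

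**Figure D2:**
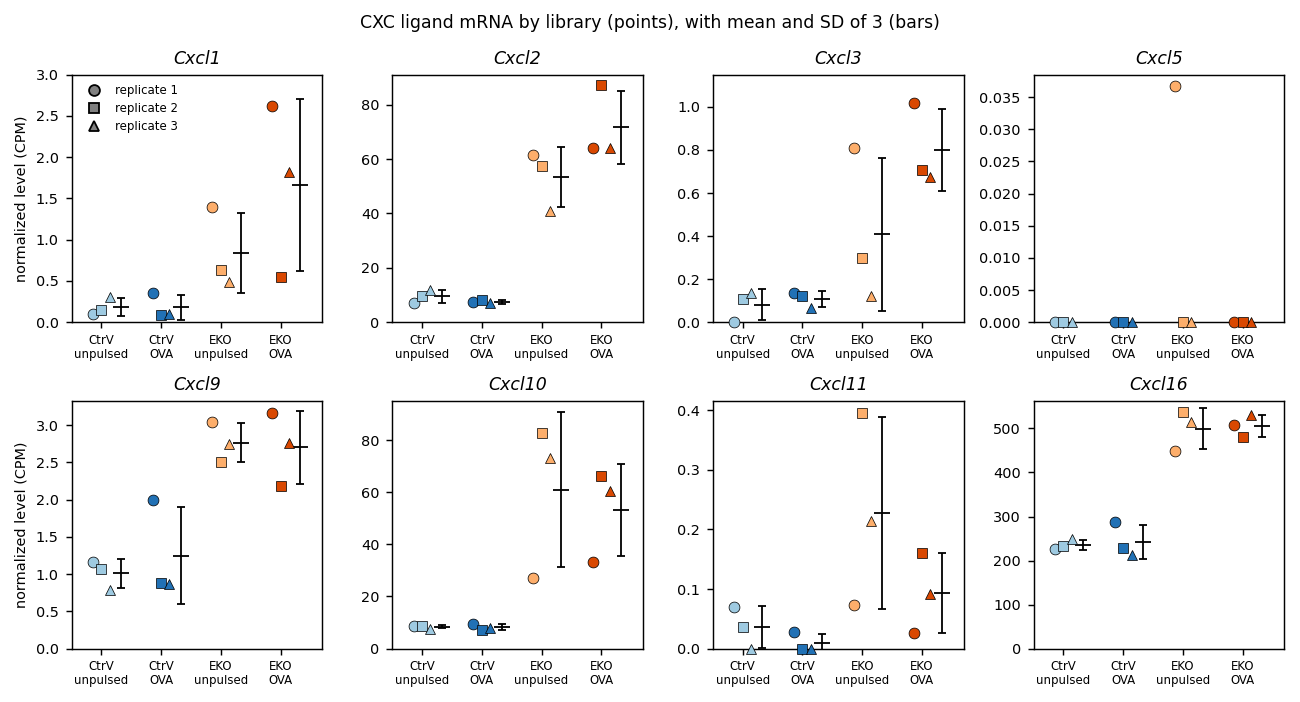
Normalized level (CPM, linear axes from 0) of the 8 members in each of the 12 libraries, with points for replicates, bars for the mean and SD of 3, and no bar for Cxcl5, which had 1 count in all. EKO marks EKO-labelled libraries, which sit above all CtrV libraries of the same pulsing for Cxcl1, Cxcl2, Cxcl9, Cxcl10 and Cxcl16.

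Cxcl2, whose product recruits neutrophils and which macrophages and DCs make on LPS, had a higher log2 fold change with OVA than the other members, although Cxcl1 passed it without OVA-pulsed CtrV replicate 1 (3.59 against 3.26) or OVA-pulsed EKO-labelled replicate 2 (3.37 against 3.12). Its levels in OVA-pulsed CtrV cells were 7.51, 8.34 and 6.90 CPM, and in OVA-pulsed EKO-labelled cells 63.9, 87.1 and 63.9 CPM (replicates 1, 2 and 3). Unpulsed CtrV cells had 7.05, 9.78 and 11.7 CPM, and unpulsed EKO-labelled cells 61.5, 57.6 and 40.9 CPM. All 6 EKO-labelled libraries were well above all 6 CtrV libraries. The log2 fold change was 3.23 ± 0.19 (SE, edgeR adjusted p = 3.23e-07) with OVA, which is 9.38-fold, and 2.48 ± 0.19 (adjusted p = 2.27e-06) without, which is 5.56-fold.

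Cxcl1, a further CXCR2 ligand, was measured close to the limit of detection in CtrV cells. Counts were 3, 4 and 9 in unpulsed and 13, 3 and 3 in OVA-pulsed CtrV libraries, against 38, 19 and 16 in unpulsed and 100, 17 and 59 in OVA-pulsed EKO-labelled libraries. As levels, OVA-pulsed CtrV cells had 0.351, 0.0906 and 0.0995 CPM and OVA-pulsed EKO-labelled cells 2.62, 0.547 and 1.81 CPM. The groups did not overlap, but replicate 2 of the OVA-pulsed EKO-labelled cells was far below the other two. In unpulsed cells the levels were 0.106, 0.143 and 0.309 CPM in CtrV and 1.39, 0.627 and 0.489 CPM in EKO-labelled cells, with replicate 3 of both lines nearest to each other. The log2 fold change was 3.13 ± 0.45 (SE, edgeR adjusted p = 0.000235) with OVA and 2.11 ± 0.54 (adjusted p = 0.00891) without. Because Cxcl1 passed the filter through 3 EKO-labelled and 0 CtrV libraries, these p-values do not stand as independent support for a difference. The unpulsed call was lost without the replicate block (log2 fold change 2.11, adjusted p = 0.0520) and without CtrV unpulsed replicate 1 (1.31, adjusted p = 0.0749). Leaving out 1 library at a time moved it between 1.31 and 2.78 (without CtrV unpulsed replicate 3), and the value with OVA between 2.89 and 3.59.

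Cxcl3, the third gene of this class with counts, was above the filter's level in 1 library, OVA-pulsed EKO-labelled replicate 1, and so was not tested. Its counts were 0, 3 and 4 in unpulsed and 5, 4 and 2 in OVA-pulsed CtrV cells, and 22, 9 and 4 in unpulsed and 39, 22 and 22 in OVA-pulsed EKO-labelled cells. The OVA-pulsed groups did not overlap, whereas unpulsed replicate 3 had 4 counts in either line. Summed over replicates, 83 counts against 11 gave a ratio of CPM of 7.43 (exact 95% interval 3.94 to 15.5) with OVA, and 35 against 7 gave 4.73 (2.07 to 12.6) without. These intervals cover counting error only and not the spread between replicates. Without the filter, edgeR gave log2 fold changes of 2.85 (adjusted p = 6.8e-05) and 2.17 (adjusted p = 0.013). Of the 50-base stretches in Cxcl2 transcripts, 5.84% also occur in Cxcl3, so some reads of these neighbours could be assigned to either. Cxcl5 had 1 count in unpulsed EKO-labelled replicate 1 and 0 elsewhere, and a count of 0 allows a level of up to 0.0785 to 0.110 CPM (3 counts), depending on the library.

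Cxcl10, the CXCR3 ligand induced by type I and type II interferon, had a higher log2 fold change without OVA than the other members. Without unpulsed CtrV replicate 3 that value was 2.60, below Cxcl1 (2.78) and Cxcl2 (2.77), and without unpulsed EKO-labelled replicate 3 it was 2.61, below Cxcl2 (2.66). Unpulsed CtrV cells had 8.71, 8.84 and 7.63 CPM and unpulsed EKO-labelled cells 27.1, 83.0 and 73.2 CPM. With OVA the levels were 9.40, 7.16 and 8.02 CPM in CtrV and 33.1, 66.3 and 60.5 CPM in EKO-labelled cells. The 6 CtrV libraries were close together, and among the EKO-labelled libraries replicate 1 was the lowest with and without OVA. The log2 fold change was 2.61 ± 0.32 (SE, edgeR adjusted p = 7.13e-05) with OVA and 2.77 ± 0.32 (adjusted p = 5.62e-05) without. With EKO-labelled replicate 1 left out in both conditions it was 3.02 (adjusted p = 2.32e-08) and 3.29 (adjusted p = 1.45e-08), and without OVA-pulsed CtrV replicate 1 it was 3.05 with OVA.

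Cxcl9, the ligand known for its dependence on interferon gamma, rose less. Its levels were 2.00, 0.876 and 0.862 CPM in OVA-pulsed CtrV cells and 3.16, 2.19 and 2.77 CPM in OVA-pulsed EKO-labelled cells. Unpulsed cells had 1.16, 1.07 and 0.790 CPM in CtrV and 3.04, 2.51 and 2.75 CPM in the EKO-labelled line. OVA-pulsed CtrV replicate 1 stood above the other CtrV libraries and below all EKO-labelled ones. The log2 fold change was 1.12 ± 0.21 (SE, edgeR adjusted p = 0.00139) with OVA and 1.47 ± 0.23 (adjusted p = 0.000422) without, and 1.53 with OVA when that library was left out. The third gene of this class, Cxcl11, had 2, 1 and 0 counts in unpulsed and 1, 0 and 0 in OVA-pulsed CtrV cells, and 2, 12 and 7 in unpulsed and 1, 5 and 3 in OVA-pulsed EKO-labelled cells. Replicate 1 of the EKO-labelled cells had no more counts than the highest CtrV library. The summed counts gave ratios of CPM of 6.62 (exact 95% interval 1.98 to 34.7, 21 against 3 counts) without OVA and 8.86 (1.23 to 388, 9 against 1 count) with OVA, both covering counting error only. Without the filter, edgeR gave an adjusted p of 0.048 without OVA and did not call the difference with OVA (adjusted p = 0.149). An opposite-strand gene covers 41.7% of its exon bases and had 0 counts.

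Cxcl16, the transmembrane ligand for CXCR6, was the most abundant member and had the smallest standard errors. Levels were 226, 232 and 248 CPM in unpulsed and 287, 229 and 213 CPM in OVA-pulsed CtrV cells. EKO-labelled cells had 449, 537 and 514 CPM unpulsed and 507, 481 and 530 CPM with OVA. All 6 EKO-labelled libraries were above all 6 CtrV libraries. The log2 fold change was 1.06 ± 0.11 (SE, edgeR adjusted p = 2.15e-05) with OVA and 1.09 ± 0.11 (adjusted p = 1.91e-05) without, or 2.08-fold and 2.13-fold. Zmynd15, on the opposite strand, overlaps 18.3% of the Cxcl16 exon bases and had 160 to 290 counts in CtrV and 404 to 613 in EKO-labelled libraries, against 6403 to 19399 counts for Cxcl16. Without a stated strand setting, reads of the shared stretch cannot be told apart.

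**Figure D3:**
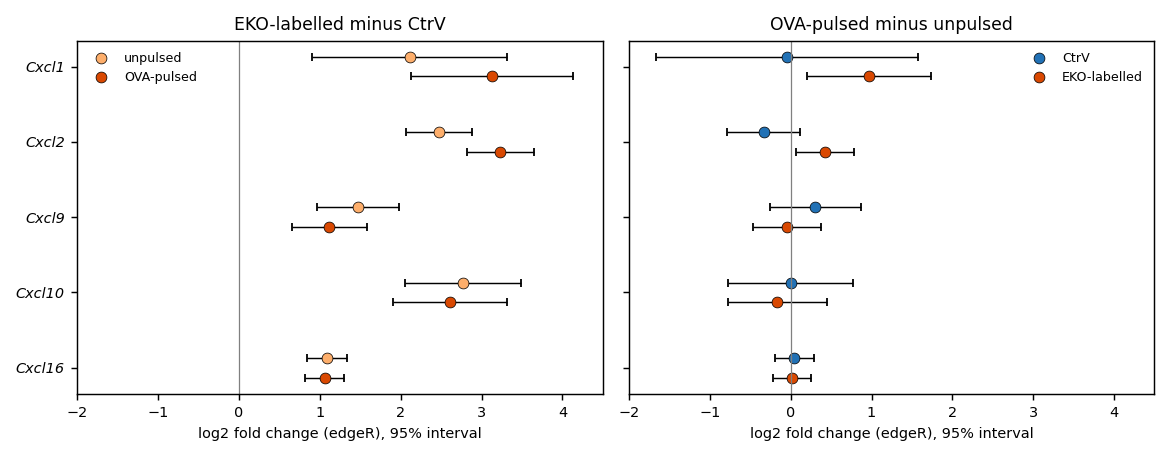
Log2 fold changes of the 5 tested members from edgeR with 95% intervals, EKO-labelled minus CtrV on the left and OVA-pulsed minus unpulsed on the right, on equal horizontal axes. The line differences lie between 1.06 and 3.23, and the OVA differences between -0.33 and 0.97.

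The members can also be set side by side. With OVA, the 95% intervals of the log2 fold change were 2.13 to 4.13 for Cxcl1, 2.82 to 3.64 for Cxcl2, 1.91 to 3.31 for Cxcl10, 0.65 to 1.58 for Cxcl9 and 0.82 to 1.30 for Cxcl16. The intervals of Cxcl1, Cxcl2 and Cxcl10 overlapped, and those of Cxcl10 and Cxcl9, both CXCR3 ligands, did not. Cxcl1 had passed the filter through EKO-labelled libraries only. The ratio of Cxcl2 to Cxcl10 within a library was 0.810 to 1.53 in unpulsed and 0.799 to 1.16 in OVA-pulsed CtrV cells. It was 2.27, 0.694 and 0.558 in unpulsed and 1.93, 1.31 and 1.06 in OVA-pulsed EKO-labelled cells. The exact two-sided permutation test of the log2 ratio between the lines gave p = 0.8 without OVA and p = 0.2 with OVA, where the smallest p that 3 against 3 libraries allow is 0.1.

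The study also allows OVA pulsing to be compared within each line. No member passed the test, nor did any gene, since edgeR called 0% of the 14079 tested genes in CtrV cells, 0% in EKO-labelled cells and 0% for the dependence of the line difference on pulsing. At an unadjusted p under 0.05 edgeR gave 231, 394 and 269 genes in these 3 comparisons, DESeq2 gave 44, 156 and 103, and limma voom gave 246, 423 and 297. Each of these counts was below a share of 0.05 of the tested genes, which that limit passes on average when no gene differs. DESeq2 and limma voom also called 0 genes in each. The edgeR counts at an unadjusted p under 0.05 depended on single libraries, reaching 663 in CtrV and 945 for the dependence without unpulsed CtrV replicate 1, and 1076 in EKO-labelled cells without unpulsed EKO-labelled replicate 1. For Cxcl2 in EKO-labelled cells, the 3 OVA-pulsed libraries were above the 3 unpulsed ones, which 2.34% of all tested genes showed. Its log2 difference was 0.42 (95% interval 0.06 to 0.78, edgeR adjusted p = 1), with 0.06, 0.60 and 0.64 in replicates 1, 2 and 3. In CtrV cells the Cxcl2 difference was -0.33 (-0.78 to 0.12), and the difference between these, 0.75 (0.18 to 1.33), also had an edgeR adjusted p of 1.

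Cxcl1 in EKO-labelled cells was 0.97 higher with OVA on the log2 scale (95% interval 0.21 to 1.74, edgeR adjusted p = 1), but its replicates gave 0.88, -0.18 and 1.76 and the groups overlapped. For Cxcl16 the OVA difference was narrowly bounded, at 0.02 (-0.22 to 0.25) in EKO-labelled and 0.04 (-0.20 to 0.28) in CtrV cells. Cxcl10 gave -0.16 (-0.78 to 0.45) in EKO-labelled and 0.00 (-0.78 to 0.77) in CtrV cells, and Cxcl9 gave -0.05 (-0.47 to 0.38) and 0.30 (-0.26 to 0.87). The intervals of these 2 genes were wider than those of Cxcl16 in both lines. These intervals are not adjusted for the number of genes tested.

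The EKO-labelled replicates differed among themselves in opposite ways for different ligands. Replicate 1 was the lowest of 3 for Cxcl10 and Cxcl11 and the highest of 3 for Cxcl1, Cxcl3 and Cxcl9, both with and without OVA. Relative to the mean of the CtrV group with the same pulsing, Cxcl10 in replicate 1 was higher by 1.69 without and 2.01 with OVA on the log2 scale, against 2.88 to 3.31 in replicates 2 and 3. Cxcl3 in replicate 1 was higher by 3.31 and 3.25, against 0.58 to 2.72 in the others. Ifnb1, which encodes interferon beta, was also lowest in replicate 1, with 0.843, 6.76 and 3.46 CPM in unpulsed and 2.28, 3.60 and 2.89 CPM in OVA-pulsed EKO-labelled cells, and 0.121 to 0.309 CPM in CtrV. Irf7, a transcription factor of the interferon response named here after its values were seen, had 122, 322 and 294 CPM and 204, 231 and 270 CPM in the same libraries. Usp18 and Ifnar2 of the same interferon list were also lowest in replicate 1 with and without OVA, whereas Irf8, Socs1, Jak1, Jak2 and Ifnar1 were highest there in both. The part of interferon beta in the Cxcl10 values was not tested. With EKO-labelled replicate 1 left out, 4 of the 4 members then tested were called higher in both comparisons, as were 22.7% of all genes tested with OVA and 22.8% without, and Cxcl1 no longer passed the filter.

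**Figure D4:**
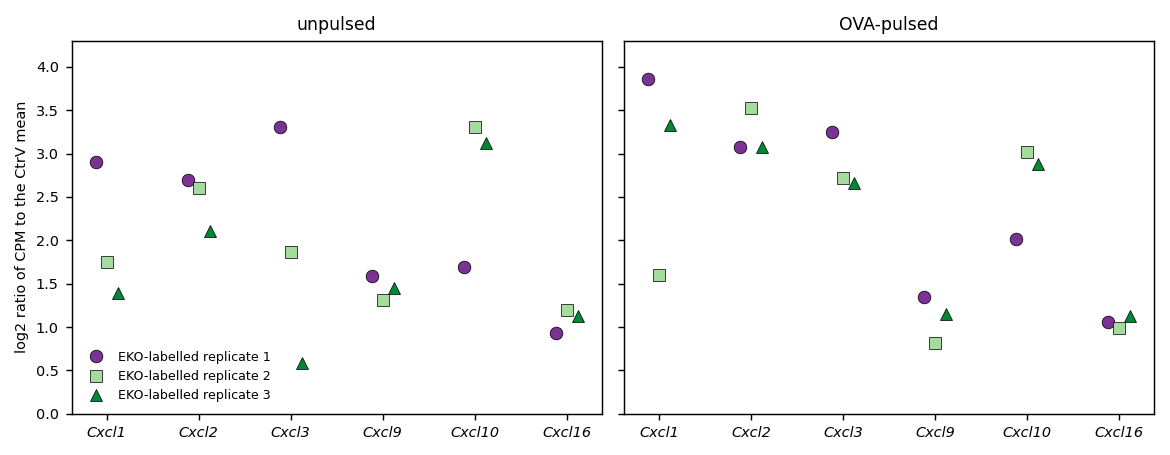
Log2 ratio of each EKO-labelled library's CPM to the mean of the CtrV group with the same pulsing, for 6 members, with unpulsed cells on the left, OVA-pulsed cells on the right and a symbol per replicate. Replicate 1 is the lowest point for Cxcl10 and the highest for Cxcl1, Cxcl3 and Cxcl9 in both panels.

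Across the 12 libraries, the genes whose log2 CPM followed a member most closely were Batf3 for Cxcl1 (Pearson's r = 0.988), Plk3 for Cxcl2 (0.991), Gm11870 for Cxcl9 (0.985), Slc25a22 for Cxcl10 (0.995) and Sp140 for Cxcl16 (0.997). The next in order were Gm13546 and Rabgap1l for Cxcl1, Gm5416 and Hsdl2 for Cxcl2, Abca1 and Atp2a3 for Cxcl9, Riox2 and Enthd1 for Cxcl10, and Acod1 and C130026I21Rik for Cxcl16. Between 416 and 1553 tested genes had r above 0.9 with each member, and the points share the difference between the lines. After the group means were removed, r over all pairs of tested members ran from -0.565 between Cxcl1 and Cxcl10 to 0.567 between Cxcl1 and Cxcl9. It was -0.184 between Cxcl2 and Cxcl10. Within the classes it was 0.092 between Cxcl1 and Cxcl2 and -0.103 between Cxcl9 and Cxcl10.

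The receptors of the members were near the limit of detection. Cxcr2 had at most 1 count, Cxcr6 at most 2 and Cxcr3 at most 16 in any library, and of 8 CXC receptors on the list only Cxcr4 and Cxcr5 were tested. Cxcr4, the receptor for CXCL12, fell by 0.69 on the log2 scale with OVA (edgeR adjusted p = 0.000967), and Cxcr5, the receptor for CXCL13, rose by 0.61 (adjusted p = 0.00524). Of 7 further CXC ligands 2 were tested. In the same comparison of the lines, Pf4, which encodes platelet factor 4, was higher in EKO-labelled cells by 1.13 (adjusted p = 5.57e-05), while Ppbp had a difference of 0.53 (adjusted p = 0.073). The other five had at most 1 count in any library.

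Among 6 proteases that cleave chemokines, 4 were tested. Between the lines with OVA, 3 were higher in EKO-labelled cells and 1 was lower, where 25.1% of all genes were called higher and 21.9% lower. Mmp8, a neutrophil collagenase gene, had 0.166 to 0.297 CPM in CtrV and 1.29 to 1.51 CPM in EKO-labelled OVA-pulsed cells (log2 fold change 2.43, edgeR adjusted p = 2.45e-05). It passed the filter only through the EKO-labelled libraries, so a difference was part of how it came to be counted among the 3. Mmp9, which encodes gelatinase B and was not tested, went the other way, at 0.447 to 0.705 CPM in the 6 CtrV libraries and at most 0.0307 CPM in the EKO-labelled ones, and is named here after its values were seen. Adam10, which sheds CXCL16 from the membrane, was lower in EKO-labelled cells by 0.26 (adjusted p = 0.00577) with OVA and had a line difference of -0.16 (adjusted p = 0.0585) without. Adam17 and Dpp4 were higher in EKO-labelled cells, by 0.12 (edgeR adjusted p = 0.0446) and 0.52 (adjusted p = 1.47e-05) with OVA. Without OVA they were higher by 0.16 (adjusted p = 0.0138) and 0.58 (adjusted p = 7.29e-06). Shedding itself was not measured.

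Genes of the hand-compiled lists named NF-kB arm and interferon arm were then counted by their calls. The lists were chosen with earlier results of these data known, so the counts are a description and not a test against the background. The background was 25.1% higher and 21.9% lower calls with OVA, and 24.5% and 21.9% without. Of 17 genes of TLR4 and NF-kB signalling, 16 rose and 0 fell with OVA (median log2 fold change 0.92), and 13 rose and 0 fell without (0.79). The extremes among those called with OVA were Nfkbiz, which encodes the nuclear cofactor IkB-zeta, at 2.24 (edgeR adjusted p = 3.97e-07), and Rela, which encodes the NF-kB subunit p65, at 0.16 (adjusted p = 0.0264). Of 17 genes of interferon production and signalling, 10 rose and 2 fell with OVA (median 0.45), and 11 rose and 2 fell without (0.31). Ifnb1 rose by 4.29 (adjusted p = 0.000105). It passed the filter through 5 EKO-labelled libraries and 0 CtrV libraries, so a difference was part of how it came to be counted. Ifngr1, a subunit of the interferon gamma receptor, fell by 1.11 (adjusted p = 1.04e-07). Chemokine mRNAs are also controlled by decay, and of 8 regulators of mRNA decay 4 rose and 1 fell in both comparisons (medians 0.16 with OVA and 0.27 without). Zc3h12a, which encodes the ribonuclease Regnase-1, rose by 1.18 (adjusted p = 1.36e-06). Zfp36l2, an RNA-binding protein gene, fell by 0.98 (adjusted p = 2.37e-06). Each list was counted whole, so a gene whose product restrains signalling counts the same as one whose product promotes it. Such counts describe mRNA levels and not the activity of a pathway. Whether the listed genes act on the ligand mRNAs in these cells was not tested.

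**Figure D5:**
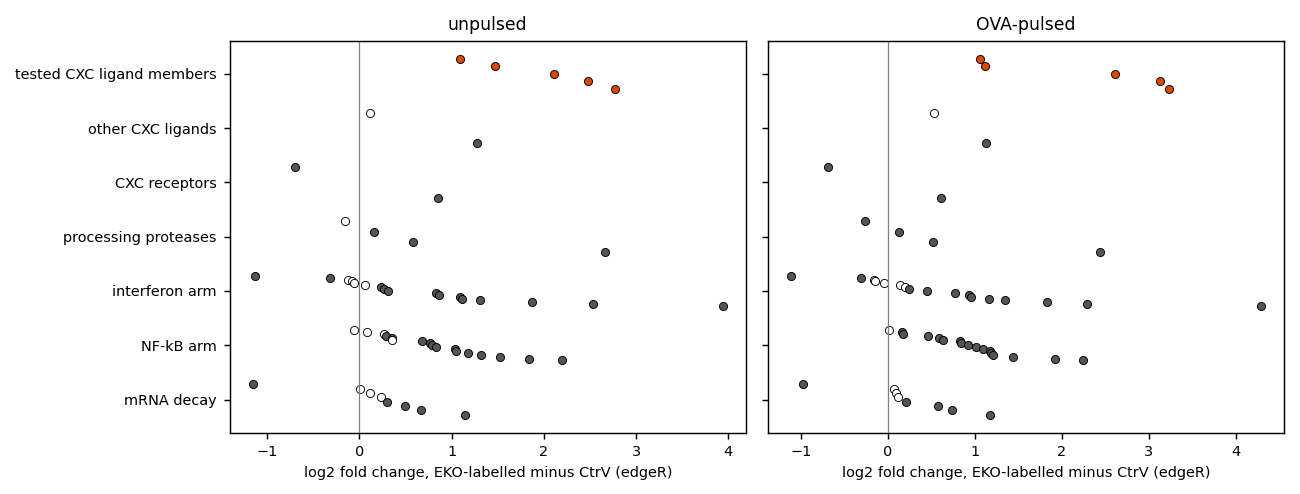
Log2 fold changes (EKO-labelled minus CtrV, edgeR) of the tested members and of the tested genes of 6 hand-compiled lists, unpulsed on the left and OVA-pulsed on the right, with 1 point per gene, filled where adjusted p was under 0.05. The 5 members and nearly all NF-kB arm genes lie to the right of 0, and the interferon arm spreads from -1.11 to 4.29 with OVA.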

How the data were processed

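Sp37A3 RNA was sequenced from stranded mRNA libraries, 3 replicates in each of 4 groups. The authors deposited raw counts per gene, made by aligning reads to mm10 with STAR, reporting 1 location for reads with several, and counting read ends on exon unions of an Ensembl model with featureCounts. The strand setting is not given in the sources used here. Totals per library ranged from 27116201 to 39698572 counts. CPM used TMM library sizes.

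edgeR 4.0.16 (R 4.3.3) was run on all 12 libraries with group and replicate number as terms, as in the study, over 14079 genes with log2 CPM (prior count 2) above 0 in at least 2 libraries. Calls were made at a Benjamini-Hochberg adjusted p under 0.05 with no fold limit, since the limits are blank in the paper's text. DESeq2 1.42.0, limma voom (limma 3.58.1), RLE scaling, other filters and left-out libraries were alternatives, and the fit was tested on simulated data. Replicate numbers came from the labels. Deviations of same-numbered libraries correlated at 0.448, 0.292 and 0.289 between OVA-pulsed lines and at 0.0602, -0.0118 and 0.263 between unpulsed lines. They were 0.706, 0.351 and 0.411 between pulsed and unpulsed EKO-labelled libraries and 0.0775, 0.179 and 0.373 for CtrV. Every correlation was above 0.1 between the OVA-pulsed lines and between pulsed and unpulsed EKO-labelled libraries, but not in the other comparisons. Libraries with different numbers were not compared in this way, so whether the numbers mark pairs was not tested. The labels do not say whether replicates were separate cultures, so p-values measure only the spread between these samples. No replicates were identical (chi-square per degree of freedom 4.85 to 45.3).

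Symbols, positions and exon lengths came from GENCODE (GRCm38), and promoters from RefSeq. Members, lists and tests were chosen with earlier results of these data known. Named by rule were all members, the called gene with the largest and smallest log2 fold change with OVA per list, Siglece, and the 3 genes most correlated with each tested member. Further genes were named outside that rule, some after their values were seen. Among them are cell type markers, Ppbp, Mmp9, Adam17, Dpp4 and the interferon genes given by their place in EKO-labelled replicate 1.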

Additional observations from a re-analysis of the deposited data

How the results depend on the processing

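For EKO-labelled against CtrV cells, 193 of 195 combinations of member and setting had the direction and call of the reported fit, and the other two, both of unpulsed Cxcl1, are given with that gene. Without the replicate block all 5 tested members were called with OVA and 4 of 5 without, and 5413 and 5337 genes were called in place of 6619 and 6537. Over all settings the number of called genes ran from 5171 to 6993 with OVA and from 4747 to 6556 without. Cxcl1 gave no value with at least 10 counts required in every library or with EKO-labelled replicate 1 left out, because it was then filtered. It also gave none in a fit of the unpulsed libraries alone.

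Of 288 values for the pulsing comparisons of members, 0 passed the test and 30 had the opposite sign, the largest reported values among these being -0.35 for Cxcl9 in the dependence of the line difference on pulsing and 0.30 for Cxcl9 in CtrV cells. For OVA-pulsed against unpulsed CtrV cells, Cxcl1 was 0.0072 without the replicate block and 0.023 with limma voom, and Cxcl10 was 0.0081 without the expression filter. Cxcl16 in EKO-labelled cells was -0.057 with replicate 1 left out of both conditions. Leaving out 1 library at a time, these differences in CtrV ran from -0.86 to 0.62 for Cxcl1, -0.11 to 0.48 for Cxcl9, -0.45 to 0.31 for Cxcl10 and -0.12 to 0.16 for Cxcl16. In EKO-labelled cells they ran from -0.18 to 0.044 for Cxcl9, -0.49 to 0.071 for Cxcl10 and -0.088 to 0.10 for Cxcl16. The dependence of the line difference on pulsing ran from -0.53 to 0.070 for Cxcl9, -0.47 to 0.31 for Cxcl10 and -0.15 to 0.14 for Cxcl16. The cause was not tested. Depth limits Cxcl3, Cxcl5 and Cxcl11, which had at most 39 counts in a library.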
